A study of Mus musculus with 24 samples.

Results

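The axonal cytoskeleton was followed through 9 genes in developing mouse spinal nerve roots: the neurofilament subunits Nefl, Nefm and Nefh, the related neuronal filament proteins Prph (peripherin) and Ina (alpha-internexin), the microtubule genes Tubb3, Mapt and Map1b, and Uchl1, a neuronal ubiquitin hydrolase. The 9 genes were taken by name from the array's annotation, and each was read from the brightest of its probes. They are 9 of 17729 genes with a tested probe. Their 21 probes stand among 56605 gene probes, of which 36409 were bright enough to be tested, 19 of the 21 among them. The main probe of every member was well above background on all 24 arrays and saturated on none.

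Expression was measured on one-colour Agilent mouse arrays in C57BL/6 mice, a wild-type inbred strain. Efferent fibres (EN, the ventral root, which carries motor axons) and afferent fibres (AN, the dorsal root, which carries the central axons of sensory neurons) of segments L4 to L6 were collected at birth (P0) and at 1, 3 and 5 weeks (1W, 3W, 5W). Each of these 8 untreated groups was measured on 3 arrays. The study's discussion states that both sexes were used equally. Per its methods, the fibres of each group were gathered in a tube, so an array appears to stand for several animals. Which animals lie behind which array is not given in the sources used here. A root sample holds axons, Schwann cells, fibroblasts and vessels, and may hold whatever tissue stayed attached at either end.

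Neurofilaments are heteropolymers built on the light chain NEFL together with the medium and heavy chains NEFM and NEFH. Alpha-internexin and peripherin join the same filaments, the former mainly in central and the latter mainly in peripheral neurons. The filaments fill large myelinated axons and set their calibre, whereas microtubules, made of tubulins such as TUBB3 and bound by tau (MAPT) and MAP1B, carry transport along the axon. Most of the mRNA for these proteins lies in the neuronal cell body, which is in the dorsal root ganglion for sensory axons and in the spinal cord for motor axons. In bulk samples of this kind, fewer cells of a type and less RNA per cell cannot be told apart.

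Probe sequences are shown for Prph, Nefm, Mapt and Map1b, since these short stretches are what was hybridised. Every probe shown holds an open reading frame over its whole length, and reading frames of the other probes are not given. Each is 60 bases long, given 5′ to 3′ on the mRNA strand, with positions on mouse build mm9. Capitals mark the stop codon that ends the reading frame of peripherin; the other sequences have no such feature. The main Prph probe lies at chr15:98889042-98889101 on the plus strand and the second at chr15:98887297-98887356. The second Nefm probe lies at chr14:68738193-68738252 on the minus strand, the second Mapt probe at chr11:104189430-104189489 on the plus strand and the main Map1b probe at chr13:100204235-100204294 on the minus strand.
Prph, main probe: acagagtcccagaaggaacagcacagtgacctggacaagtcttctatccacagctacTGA
Prph, second probe: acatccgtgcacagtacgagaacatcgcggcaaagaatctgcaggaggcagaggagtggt
Nefm, second probe: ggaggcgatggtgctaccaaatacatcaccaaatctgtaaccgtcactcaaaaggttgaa
Mapt, second probe: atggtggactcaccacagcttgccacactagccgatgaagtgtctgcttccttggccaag
Map1b, main probe: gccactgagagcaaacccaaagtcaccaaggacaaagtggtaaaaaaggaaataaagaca
The main probes of the remaining members lie at chr14:68705725-68705784 for Nefl, chr14:68737598-68737657 for Nefm, chr11:4838758-4838817 for Nefh, chr19:47098781-47098840 for Ina, chr8:125945701-125945760 for Tubb3, chr11:104189496-104189555 for Mapt and chr5:67078408-67078467 for Uchl1. Ina and Tubb3 had 1 probe each.

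One array stood apart and has to be known before the results. AN 3W replicate 3 held Nefl at 18.03 on the log2 scale, against 13.66 and 12.93 on the other AN 3W arrays, and it was the highest of all 24 arrays for 7 of the 9 members (all but Ina and Mapt). Its excess over the mean of replicates 1 and 2 ran from 0.91 for Mapt and 1.55 for Ina to 4.98 for Nefh and 5.27 for Prph, a 38.7-fold difference for peripherin. An excess of over 2 on the log2 scale was found for 7 of the 9 members and for 3.46% of all tested probes. Among 11 marker genes of dorsal root ganglion sensory neurons, 8 were raised by more than 1 on this array, with a median excess of 4.96. All 6 skeletal muscle markers were raised as well, by 1.63 to 3.24, whereas the 8 myelinating Schwann cell markers lay within -0.55 to 0.13. AN 5W replicate 3 was the lowest array of its group for each of the 9 members. The tests shared 1 estimate of the spread over the 8 groups, so the results are given with all 24 arrays and again without AN 3W replicate 3.

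**Figure D1:**
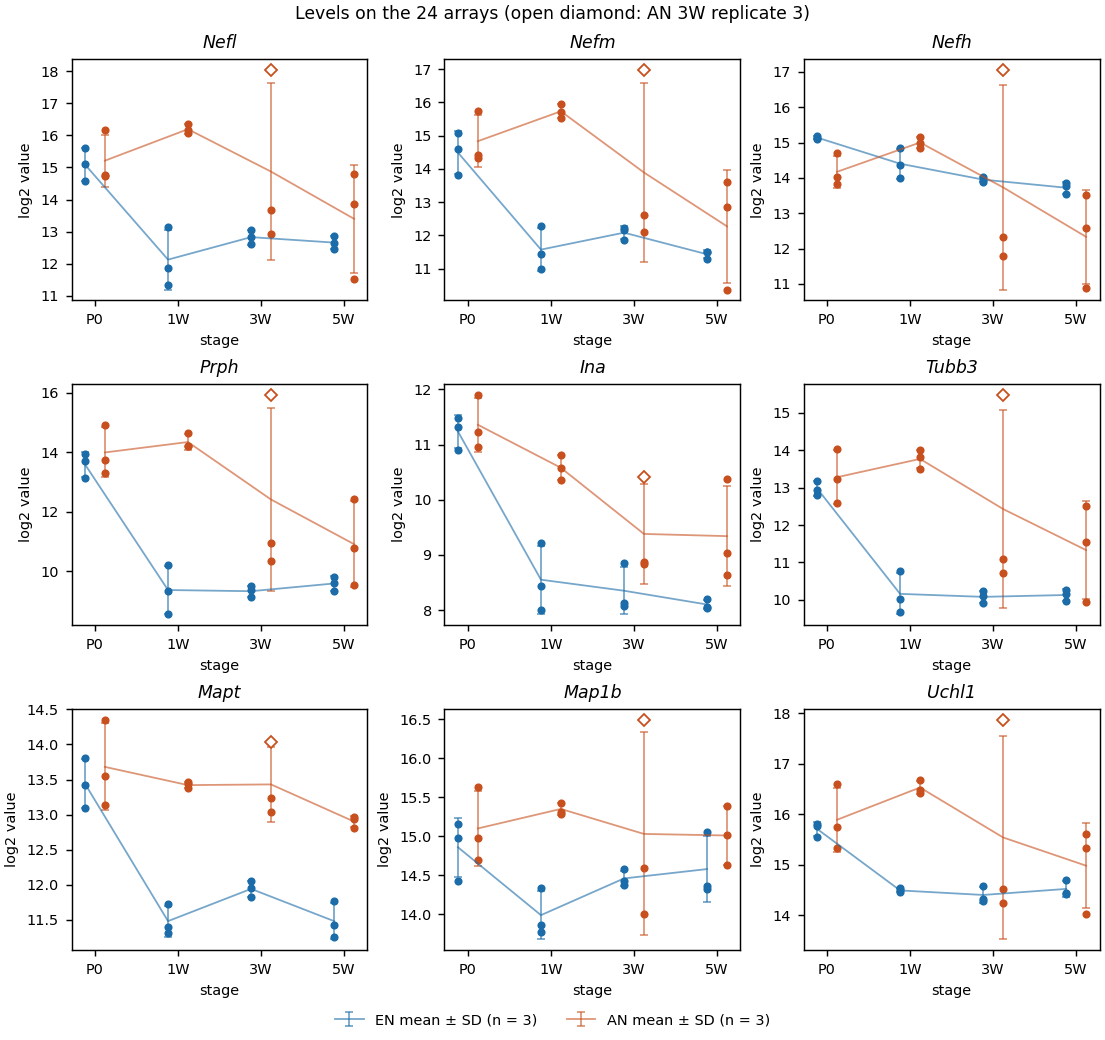
Log2 values of the 9 members by stage, with 1 point for each array, the group mean and its SD (n = 3) in blue for EN and orange for AN; the vertical axes differ between panels. After P0 the EN arrays dropped for most members while AN 1W stayed high, and the open diamond of AN 3W replicate 3 lies above the other AN 3W arrays in every panel (18.03 for Nefl).

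Afferent and efferent fibres were compared at each stage. At P0 most members were close in both roots. None of the 9 passed an adjusted p of 0.05 (limma, Benjamini-Hochberg adjustment over all tested probes, here and throughout), where 0.739% of all tested probes did. At an unadjusted p under 0.05 together with a 2-fold change the count was 0 as well. The differences were small for 8 members, between 0.12 and 0.39, and that of Nefh was -0.97 (95% interval -2.82 to 0.88). The other intervals were also wide, for example -1.87 to 2.11 for Nefl, whereas that of Mapt ran from -0.33 to 0.81. These data therefore left room for differences of several fold at birth for most members. Every AN array of Nefh lay under every EN array at P0, and 13.2% of all tested probes also had no overlap.

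At 1W the members parted. Of the 9 genes, 6 were higher in AN and none was lower, beside 4.00% of all tested probes called in either direction and 2.74% called higher. The median difference over the members was 2.03, and it was -0.06 over all tested probes. The estimates at 1W were the same without AN 3W replicate 3, which is in neither group, but the spread was smaller and 8 of the 9 passed, beside 6.35% of all probes. Nefh was the member that did not pass either way.

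The filament genes carried the widest gap. Prph measured 14.19, 14.64 and 14.19 on the AN 1W arrays and 8.57, 9.34 and 10.21 on the EN 1W arrays. The AN arrays lay far above all EN arrays, with a difference of 4.97 ± 0.98 (SE; 31.3-fold; adjusted p = 0.00712). Nefl measured 16.06, 16.35 and 16.17 in AN and 11.35, 11.86 and 13.16 in EN, which was tighter in AN than in EN. The light chain differed by 4.07 ± 0.95 (16.8-fold; adjusted p = 0.0186). Nefm, at 15.70, 15.96 and 15.54 in AN and 10.99, 11.45 and 12.28 in EN, kept step with the light chain at 4.16 ± 0.92 (adjusted p = 0.0133).

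Ina, the central-type filament protein, measured 10.35, 10.58 and 10.81 in AN and 8.00, 8.44 and 9.21 in EN. Its difference was 2.03 ± 0.44 (4.09-fold; adjusted p = 0.0115), smaller than those of the other called filament genes. Nefh measured 14.99, 15.15 and 14.85 in AN and 13.99, 14.37 and 14.84 in EN. The heavy chain arrays nearly touched, and the difference of 0.60 ± 0.88 did not pass (adjusted p = 0.877; 0.604 without AN 3W replicate 3).

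Among the microtubule genes, Tubb3, the neuronal beta-tubulin, measured 13.81, 14.00 and 13.51 in AN and 9.68, 10.03 and 10.77 in EN. The difference was 3.62 ± 0.84 (12.3-fold; adjusted p = 0.0183). Mapt measured 13.38, 13.46 and 13.44 in AN and 11.31, 11.39 and 11.73 in EN. Tau had the smallest error of the members, and its difference of 1.95 ± 0.27 had the lowest adjusted p (0.00075). Map1b, an early microtubule-binding protein of growing axons, was at 15.29, 15.43 and 15.31 in AN and at 13.77, 13.87 and 14.34 in EN, without overlap. Its difference of 1.35 ± 0.43 did not pass with all arrays (adjusted p = 0.0993) and passed without AN 3W replicate 3 (0.00368). Uchl1 was at 16.49, 16.67 and 16.42 in AN and at 14.45, 14.50 and 14.53 in EN. The groups were far apart relative to their own spread, and the difference of 2.03 ± 0.62 went the same way (adjusted p = 0.0816 with all arrays and 0.000386 without that array). Both genes also passed when the fit held the 1W groups alone (adjusted p = 0.00975 for Map1b and 0.000905 for Uchl1).

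The calls at 1W rested on few arrays. Leaving out EN 1W replicate 1 left 1 member called, EN 1W replicate 2 left 2, and AN 1W replicate 2 or replicate 3 left 3 each. All 9 members were higher in AN in each of the 3 same-slide pairs at 1W, the smallest pair difference being 0.01 for Nefh. The share of all probes with such pairs was not computed. The AN and EN arrays of 1W did not overlap for 9 of the 9 members and for 24.6% of all tested probes.

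**Figure D2:**
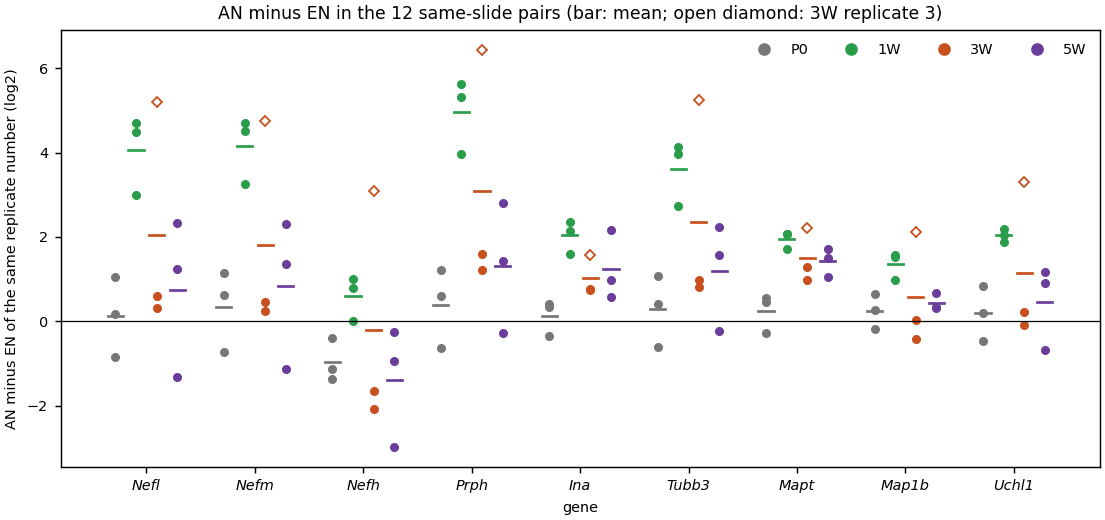
AN minus EN on the log2 scale for each member in the 12 pairs of arrays that share a stage, a replicate number and a slide; colours give the stage and short bars the mean of 3 pairs. The 1W pairs of Nefl, Nefm, Prph and Tubb3 sit between 2.74 and 5.62. Mapt and Ina are above 0 in all 9 pairs after P0 (share of all probes not computed), and the open diamond (3W replicate 3) is raised for most genes.

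At 3W and 5W tau was the member called between the roots. Mapt was the only member called at 3W (1.49 ± 0.27, adjusted p = 0.00269) and at 5W (1.42 ± 0.27, adjusted p = 0.00302), beside 5.89% and 6.76% of all tested probes. Its arrays measured 13.23, 13.03 and 14.04 in AN and 11.95, 12.05 and 11.83 in EN at 3W. At 5W they measured 12.93, 12.97 and 12.81 in AN and 11.43, 11.25 and 11.77 in EN. No AN value of Mapt fell to the level of an EN value at either stage. The AN and EN arrays did not overlap for 3 members and 32.7% of all tested probes at 3W. At 5W they did not overlap for 3 members and 20.1% of all tested probes. Leaving out AN 3W replicate 3 gave 1.19 ± 0.26 at 3W (adjusted p = 0.0167) and 1.42 ± 0.24 at 5W (adjusted p = 0.00094). With the groups of 1 stage fitted alone, Mapt passed at 3W (adjusted p = 0.0488) and not at 5W (0.0677). All 4 other Mapt probes were also higher in AN at 1W, 3W and 5W, by 1.02 to 2.29, though 1 of them did not pass at 3W or 5W. Markers of other cells went both ways between the roots. Fibroblast and meninges markers were lower in AN for 2 of 7 genes at 1W and for 3 of 7 at each later stage. None of them was higher, and the 3W calls were lost without AN 3W replicate 3. Among 5 endothelium markers 1 was lower in AN at each of these stages and none was higher. The 4 lists that follow had higher genes in AN and no lower gene. Of 6 immature Schwann cell markers 3 were higher at 1W, 4 at 3W and 5 at 5W (medians 0.64, 1.36 and 1.47). Of 6 astrocyte markers 3 were higher at 1W and 3 at 5W, and of 7 oligodendrocyte markers 2 at 1W and 2 at 5W, with none at 3W in either list. Of 6 spinal interneuron markers 1 was higher at 1W, 1 at 3W and 4 at 5W (median 2.95 at 5W). Their part in the members' differences was not tested.

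On the main probes, the other members at 3W depended on AN 3W replicate 3. With it, Nefl, Nefm and Prph were on average 2.04, 1.81 and 3.08 higher in AN, and without it 0.46, 0.27 and 1.32. Of these 6 values none passed. For Nefl the size depended on the probe. With all arrays the second Nefl probe differed by 2.98 ± 0.88 at 3W (adjusted p = 0.0525). At 5W it differed by 2.0 ± 0.88 (adjusted p = 0.198), where the main probe differed by 0.74. Prph at 3W read 10.95, 10.35 and 15.92 in AN against 9.36, 9.13 and 9.49 in EN, so that replicates 1 and 2 still lay above every EN array. When arrays of 1 pair were compared with each other as a paired replicate block, Prph (adjusted p = 0.0393) and Ina (adjusted p = 0.0336) joined Mapt at 3W, beside 21.1% of all probes. At 5W the paired block added Ina (1.24, adjusted p = 0.0148), beside 23.5% of all probes, and Ina also passed at 5W without AN 3W replicate 3 (adjusted p = 0.0472).

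The heavy chain went the other way at these stages, and its estimate at P0 had also been below 0 (-0.97, not called). Nefh at 3W measured 12.34, 11.80 and 17.05 in AN and 14.01, 13.89 and 13.95 in EN. Replicates 1 and 2 of AN lay under every EN array and replicate 3 far over them, which left a mean difference of -0.22 ± 0.88 that did not pass. Nefh was lower in AN once that array was left out (-1.88 ± 0.48, adjusted p = 0.0378). That made 2 members called at 3W, Mapt higher and Nefh lower, beside 3.43% of all probes. At 5W Nefh measured 13.52, 12.59 and 10.88 in AN against 13.78, 13.53 and 13.86 in EN, with every AN array under every EN array, though replicate 1 of AN only just. Of all tested probes 20.1% had no overlap at 5W. The difference of -1.39 had an adjusted p of 0.396 with all arrays and 0.0504 without AN 3W replicate 3, when 9.16% of all probes were called at 5W.

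The balance of the light and the heavy chain within an array showed the split between roots more evenly than either level. The log2 ratio of Nefl to Nefh was set to 0 at its mean in EN P0, so that the values describe change in the ratio and not the relative amount of both mRNAs. In AN it stood at 0.79, 1.51 and 0.97 at P0, at 1.12, 1.25 and 1.37 at 1W, at 1.37, 1.19 and 1.03 at 3W and at 1.34, 1.34 and 0.70 at 5W. AN 3W replicate 3 was not apart from the rest on this scale. In EN the ratio read -0.52, 0.06 and 0.45 at P0, dropped to -2.58, -2.46 and -1.62 at 1W, and was -0.89, -1.23 and -1.07 at 3W and -1.25, -0.83 and -0.96 at 5W. Every AN array thus lay above every EN array of any stage. With the second probes of both genes the EN means after P0 were lower still, at -2.80, -2.50 and -2.81. On these probes AN 5W replicate 1 (-0.20) lay below 2 EN P0 arrays, and AN 3W replicate 3 (0.39) just below EN P0 replicate 3 (0.4). The ratio was chosen after the values were seen and carries no test.

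**Figure D3:**
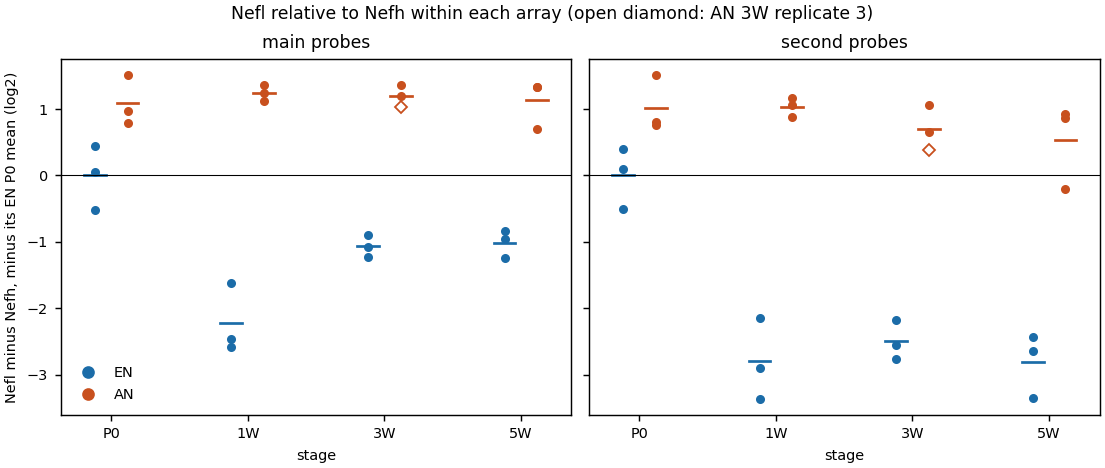
Log2 ratio of Nefl to Nefh within each array, relative to its mean in EN P0, by stage, on the main probes (left) and on the second probes (right); short bars are means of 3 arrays. AN arrays (orange) stay near 1 on the main probes, while EN arrays (blue) fall to a mean of -2.22 at 1W.

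Changes with age were compared within each root. In EN, 6 of the 9 members were lower at 1W than at P0 and none was higher, beside 27.1% of all tested probes called and 11.6% called lower. At 3W 5 members were lower, beside 55.0% called and 26.0% called lower, and at 5W 6 were lower, beside 54.1% called and 26.0% called lower. The shares of members called in either direction at 3W and 5W were therefore near that of all probes. The median member differed from P0 by -2.69 at 1W, -2.26 at 3W and -2.44 at 5W, and the median probe by 0.06, 0.04 and 0.04. With AN 3W replicate 3 left out, 8 members were lower at each of the 3 stages, beside 29.9%, 56.8% and 55.8% of all probes.

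On the main probes peripherin fell the most in EN. Prph measured 13.14, 13.71 and 13.94 at P0, then 9.36, 9.13 and 9.49 at 3W and 9.62, 9.35 and 9.82 at 5W. The difference from P0 was already -4.22 ± 0.98 at 1W (18.6-fold lower; adjusted p = 0.00371), and it was -4.00 ± 0.98 at 5W (adjusted p = 0.00206). Ina went from 10.91, 11.49 and 11.32 at P0 to 8.04, 8.20 and 8.06 at 5W (-3.14 ± 0.44, adjusted p = 8.29e-06).

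Nefl and Nefm fell by 2.97 and 2.91 on the log2 scale from P0 to 1W in EN (adjusted p = 0.0264 and 0.0246). From P0 to 5W the light chain differed by -2.44 on the main probe and by -4.47 on the second probe, so the probes agreed in direction and not in size. Tubb3 fell by 2.82 and Mapt by 1.96 from P0 to 1W (adjusted p = 0.018 and 4.3e-05). These 4 genes and Prph and Ina were called lower at 1W and again at 5W, and all but Nefl (adjusted p = 0.0517) at 3W.

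Nefh, Map1b and Uchl1 changed less in EN. Nefh went from 15.14, 15.10 and 15.19 at P0 to 13.78, 13.53 and 13.86 at 5W, a difference of -1.42 ± 0.88 that did not pass with all arrays (adjusted p = 0.183) and passed without AN 3W replicate 3 (0.00929) or with the EN P0 and EN 5W groups alone (0.000633). Uchl1 differed by -1.19 ± 0.62 at 5W (adjusted p = 0.118 with that array and 0.00391 without). Map1b differed by -0.28 ± 0.43 at 5W and did not pass either way.

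Slides could be held fixed for part of these changes. P0 and 1W arrays met on 2 slides, where the EN change was negative for all 9 members on both. It was -4.57 and -3.61 for Prph and -3.22 and -2.18 for Nefl. The share of all probes lower on both slides was not computed. Over all slides, the EN P0 and EN 1W arrays did not overlap for 9 members and for 46.4% of all tested probes. P0 and 5W met on 1 slide, where Prph differed by -4.48, Mapt by -2.36 and Map1b by -0.01. All 3W arrays shared 1 slide that held no P0 array, so the change from P0 to 3W had no within-slide value. With slide as a block, which links these stages through the 5W arrays, 2 members passed for EN at 3W.

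In AN the course was later. From P0 to 1W no member was called, beside 21.7% of all tested probes, and 7 of the 9 estimates were above 0 (Nefl 0.98, Nefm 0.90, Nefh 0.82; none passed in limma without AN 3W replicate 3 either, and none reached an unadjusted p of 0.05 together with a 2-fold change). From P0 to 3W 1 member, Ina, was lower (-1.99 ± 0.44, adjusted p = 0.001), beside 51.7% of all probes called and 24.9% called lower. Without AN 3W replicate 3, 8 members were lower at 3W, all but Mapt, beside 52.2% of all probes. From P0 to 5W 4 members were lower, beside 50.6% called and 24.2% called lower: Nefm (-2.56 ± 0.92), Prph (-3.08 ± 0.98), Ina (-2.02 ± 0.44) and Mapt (-0.78 ± 0.27). For Mapt 1 of the 4 other probes gave 0.05 ± 0.23 here, and another did not pass. Without AN 3W replicate 3, 8 were lower at 5W, all but Map1b, beside 52.8% of all probes, while leaving out AN P0 replicate 2 or AN 5W replicate 3 left 1 called.

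The AN 5W arrays were widely spread. Nefl measured 14.80, 13.87 and 11.53, Prph 12.42, 10.77 and 9.54, and Uchl1 15.60, 15.33 and 14.02. Replicate 3 lay below all EN 5W arrays for Nefl, at 11.53 against 12.47 to 12.85. Mapt, at 12.93, 12.97 and 12.81, did not share this spread. On the slide that held both stages, 8 of the 9 members were lower at 5W than at P0 in AN, and Map1b differed by 0.08. The share of all probes lower on that slide was not computed. Over all slides, the AN P0 and AN 5W arrays did not overlap for 6 members and for 53.3% of all tested probes.

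Steps between later stages gave few calls. From 1W to 3W no member was called in EN, beside 27.4% of all probes, and Ina alone was called in AN (-1.20 ± 0.44, adjusted p = 0.0457), beside 29.9%. That call was near the threshold and was lost when any one of many single arrays was left out. Without AN 3W replicate 3 this step was called for 8 members in AN, all lower and all but Mapt, beside 32.8% of all probes, with Nefm at -3.38 ± 0.66 and Nefh at -2.93 ± 0.48. From 3W to 5W none of the members was called in EN, beside 2.25% of all probes, or in AN, beside 3.67%. At an unadjusted p under 0.05 with a 2-fold change, the count from 3W to 5W was also 0 in both roots.

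**Figure D4:**
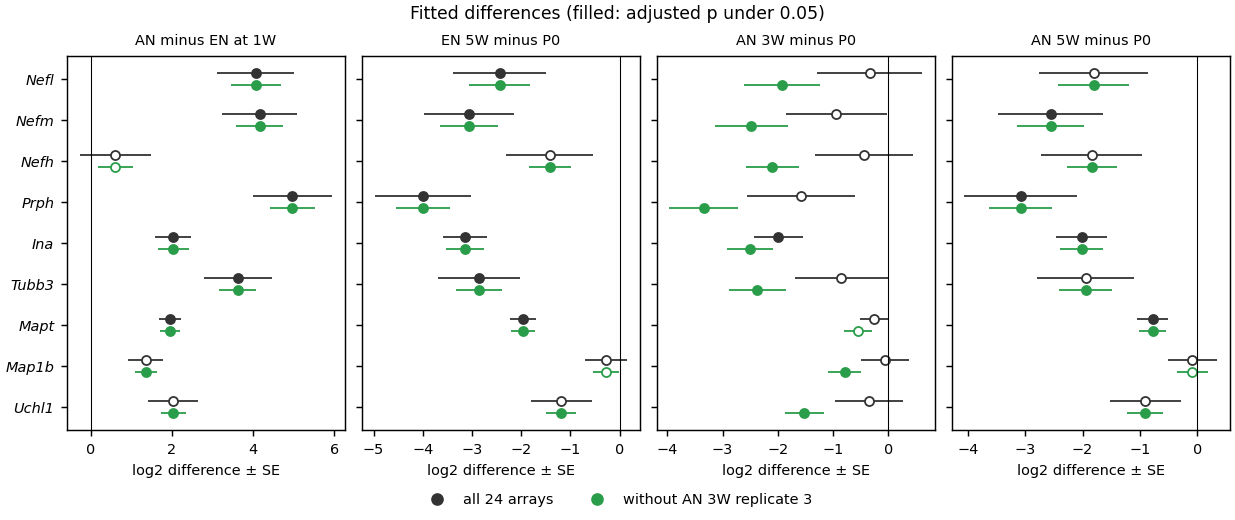
Fitted log2 differences with their SE for 4 comparisons, from all 24 arrays (black) and without AN 3W replicate 3 (green); filled points have an adjusted p under 0.05. Leaving out the array moves the estimates that use AN 3W (Prph in AN from P0 to 3W, from -1.58 to -3.34) and narrows most errors.

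Whether the AN minus EN difference itself changed from P0 was tested by interaction. With all arrays no member was called on its main probe at 1W, 3W or 5W, beside 0.0632%, 0.615% and 1.14% of all probes. A fainter Mapt probe passed at 5W (1.45 ± 0.33, adjusted p = 0.0347), and the other Mapt probes did not. Mapt at 1W came nearest, with a change of 1.71 ± 0.38 (adjusted p = 0.143). When AN 3W replicate 3 was left out, 6 members were called at 1W, beside 1.71% of all probes: Nefl (3.95), Nefm (3.82), Prph (4.57), Tubb3 (3.32), Mapt (1.71) and Uchl1 (1.85). At 3W and 5W none was called without that array.

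The order of the 8 groups was alike for most members. AN 1W had the highest mean for Nefl, Nefm, Prph, Tubb3, Map1b and Uchl1, AN P0 for Ina and Mapt, and EN P0 for Nefh. AN 1W, AN P0 and EN P0 overlapped as neighbours in that order for Nefl, Nefm, Prph, Tubb3 and Uchl1. For Mapt the order separated cleanly in its lower part, with AN 5W below AN 1W and EN 3W below AN 5W and no overlap between these neighbours.

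The members tracked each other across the arrays. Over 24 arrays, which share stage and root, Pearson's r between pairs of members had a median of 0.838 and was highest for Prph and Tubb3 (0.991) and lowest for Nefh and Mapt (0.265). Deviations from the group means had r from 0.645 to 0.993, and without AN 3W replicate 3 from 0.422 to 0.981, with Nefl and Nefm as the highest pair. Arrays of 1 group that were high in one member were thus high in most. Genes outside the list with the most similar course over the 8 group means were Avil for Prph (r = 0.998) and for Tubb3 (r = 0.997), Trim36 for Nefl (0.993), Myo1a for Nefm (0.995), Kctd16 for Ina (0.994), Srrm3 for Mapt (0.995), Kcnv1 for Uchl1 (0.992), Fbxo2 for Map1b (0.982) and Ube2v1 for Nefh (0.975). Avil, which encodes advillin, belongs to the sensory neuron marker list.

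Sensory neuron markers moved with the members. The mean log2 value of the 11 markers was 10.03 to 10.48 on the EN P0 arrays and 9.89 to 11.33 on the AN P0 arrays, so the root labelled efferent held these mRNAs at birth at about the level of the afferent root. Calca, the neuropeptide CGRP of nociceptors, averaged 13.23 in EN P0 and 13.75 in AN P0, and Scn10a, a sensory sodium channel, 12.33 and 12.74. From 1W on the list fell to 6.66 to 8.00 in EN. In AN it was 10.68 to 10.90 at 1W, 8.33 and 8.01 on replicates 1 and 2 of 3W and 11.83 on replicate 3, and 9.45, 8.48 and 6.61 at 5W. The last sequence follows the order of Nefl and Prph on the same arrays.

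At 1W 7 of 10 tested sensory markers were higher in AN and none lower, beside 2.74% of all tested probes called higher. From P0 to 1W in EN 7 of 10 were lower (median -4.02) and none higher, beside 11.6% of all tested probes called lower. From P0 to 5W 7 were lower (median -4.64), beside 26.0% of all tested probes. Pou4f1, Prrxl1 and P2rx3, also on the list, had group means within 13.69 to 15.20, 7.77 to 8.69 and 5.94 to 6.89. Across the 24 arrays the marker mean correlated with Prph at r = 0.992, Tubb3 at 0.989, Nefm at 0.975, Nefl at 0.962, Uchl1 at 0.935, Ina at 0.902, Mapt at 0.882, Map1b at 0.751 and Nefh at 0.618. Within the 12 AN and the 12 EN arrays r for Nefh with this list was higher, at 0.966 and 0.92. Rbfox3, the nuclear protein of neuronal cell bodies, was above background on all 24 arrays and averaged 11.58 in EN P0, 8.08 in EN 1W and 12.02 in AN 1W. The part of these markers in the members' differences was not tested.

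The other neuronal lists were correlated with the members too. Over the 24 arrays the mean of 10 general neuron markers had r from 0.512 for Nefh to 0.953 for Tubb3, and it was above that of the sensory list for Ina (0.935), Mapt (0.897) and Map1b (0.793). Within the 12 AN and the 12 EN arrays Nefh had r = 0.89 and 0.91 with the general neuron list. The mean of 6 motor neuron markers had r from 0.595 for Nefh to 0.903 for Prph over the 24 arrays. Within the AN and the EN arrays r for Nefh was 0.83 and 0.879. Of the 6 motor neuron genes Mnx1 was above background on no array. Chat, the enzyme that makes acetylcholine, averaged 7.49 in EN P0, 8.47 in EN 5W and 9.09 in AN 5W. Slc18a3 and Lhx4 went the other way, with the higher mean in EN at every stage. At 5W they averaged 6.89 and 6.35 in EN and 6.11 and 5.91 in AN. No motor neuron marker was called lower in AN at any stage. The list mean lay between 5.41 and 7.21 on all arrays. Isl2, which sensory neurons also express, went from 11.61 in EN P0 to 5.69 in EN 5W, where 2 of 3 arrays were above background. Markers of spinal interneurons were lower in EN 5W than in EN P0 for all 6 genes, beside 26.0% of all tested probes. After P0 their mean was highest on AN 5W replicate 2 (8.95), the array with the highest Ina value of its group (10.37). Skeletal muscle markers were at 13.17 to 14.85 in EN P0 and at 9.25 to 10.21 in EN 1W. Of these markers 6 of 6 were lower at 1W, beside 11.6% of all tested probes. Schwann cell myelin markers rose in EN (5 of 8 higher at 1W, beside 15.5% of all tested probes) and in AN (7 of 8, beside 12.3%). Their mean was negatively correlated with the members, from -0.276 for Map1b to -0.802 for Ina over the 24 arrays. Within the 12 EN arrays r ran from -0.508 for Map1b to -0.974 for Tubb3. Within the 12 AN arrays r ran from -0.113 for Map1b to -0.797 for Ina. How much of the members' change with age goes with these lists was not tested.

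**Figure D5:**
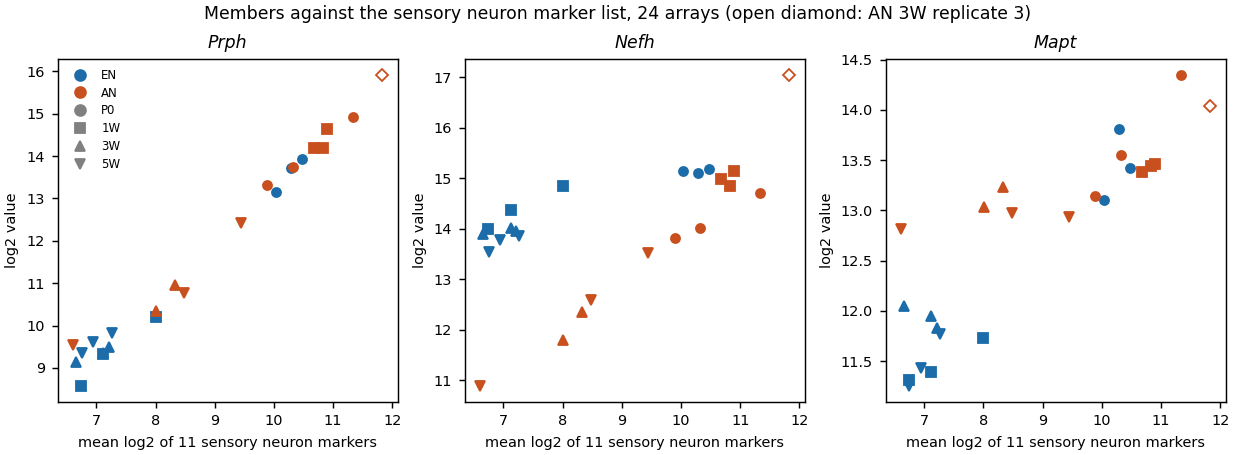
Log2 values of Prph, Nefh and Mapt against the mean log2 value of 11 sensory neuron markers, with 1 symbol for each of 24 arrays (blue EN, orange AN, symbol shape for stage). Prph arrays of both roots and all stages follow 1 line (r = 0.992), no EN array has Nefh under 13.53, and no AN array has Mapt under 12.81.

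Nefh and Mapt departed from that line in opposite directions on an AN array with low markers. AN 5W replicate 3 had the lowest marker mean of all arrays (6.61), close to the EN 5W arrays at 6.75 to 7.27. On it Nefh measured 10.88, against 13.53 to 13.86 in EN 5W, and Mapt measured 12.81, against 11.25 to 11.77. Prph, at 9.54, lay within the EN 5W arrays at 9.35 to 9.82, and Map1b, at 14.63, within 14.32 to 15.06. Nefh and Mapt were not the only members outside the EN 5W range. Nefl, Nefm, Uchl1 and, narrowly, Tubb3 also lay below every EN 5W array, and Ina lay above (8.63 against 8.04 to 8.20). This array was singled out after its values were seen, and the comparison has no test.

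Other genes of the cytoskeleton were read from fixed lists. Of 12 other tubulin isotypes none was called between roots at 1W (median 0.47; 2 higher without AN 3W replicate 3). Tuba4a differed by 1.95 ± 0.97 at 1W and did not pass, and Tubb4a by 1.01 ± 0.29 (adjusted p = 0.0579 with and 0.00536 without AN 3W replicate 3). From P0 to 5W Tubb2b, a beta-tubulin of developing neurons, was lower in EN (-1.93) and AN (-2.10), and Tuba8 was higher (4.87 and 4.66).

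Of 19 other microtubule-associated proteins, 6 were higher in AN at 1W and none lower (median 1.12). Map7d2 (3.95 ± 0.85, adjusted p = 0.0109) and Dcx, doublecortin of immature neurons (3.38 ± 0.63, adjusted p = 0.00565), were among them. Dcx was above background on 2 of 3 arrays in EN 1W and on none in EN 5W. It was at least 21.5-fold lower in EN at 5W than at P0, a bound taken from the dimmest probes above background on each array, and it was also lower in AN, where 2 of 3 arrays measured it at 5W. Map2, the dendritic relative of tau, was higher in AN at 5W (1.83 ± 0.45, adjusted p = 0.0184) and did not pass at 1W with all arrays (1.51, adjusted p = 0.0706). Map1a differed by 1.12 at 1W (adjusted p = 0.113 with and 0.0043 without AN 3W replicate 3), and Dclk1 was lower at 5W than at P0 in EN (-2.88) and in AN (-2.21).

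Of 20 transport motor genes 1 was higher in AN at 1W with all arrays (6 higher and 1 lower without AN 3W replicate 3; median 0.21). Dync1i1, a dynein intermediate chain, was higher in AN by 4.08 ± 0.85 (adjusted p = 0.00945). Kif5c, a kinesin heavy chain, was lower in AN at 3W (-2.01 ± 0.35) and at 5W (-2.28 ± 0.35; adjusted p = 0.00184 and 0.000489). Kif5a, the kinesin known to move neurofilaments, differed by -1.55 at 5W and passed without AN 3W replicate 3 (adjusted p = 0.0635 with it and 0.000728 without). The adaptor Bicd1 was higher at 5W than at P0 by 2.02 in EN and 2.51 in AN.

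Of 13 spectrin, ankyrin and adducin genes 2 were higher in AN at 1W and none lower (median 0.11), Add2, a beta-adducin, among them (4.08 ± 0.81). Add2 was lower at 5W than at P0 in EN (-3.98). Of 14 genes for neurofilament linkers, kinases and turnover 1 was higher in AN at 1W, namely Cdk5r1 (1.67 ± 0.36, adjusted p = 0.0108), the p35 activator of the kinase CDK5. Its relative Cdk5r2 differed by 2.94 ± 0.84 (adjusted p = 0.0571 with and 0.0138 without AN 3W replicate 3). Mapk3 was higher at 5W than at P0 in EN by 2.31, and it was higher in AN too.

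Of 11 intermediate filament genes of other cells 1 was higher in AN at 1W, Gfap (2.55 ± 0.60, adjusted p = 0.02), the filament of astrocytes and of non-myelinating Schwann cells. Vim differed by -0.06 and Nes by -0.60 at 1W, and neither passed. Nes was higher at 5W than at P0 in EN by 1.53 and also in AN, and the keratins Krt8 and Krt18 were lower. Neither keratin was above background on any 5W array, so they were at least 7.56-fold and 10.2-fold lower in EN and at least 9.49-fold and 10.6-fold lower in AN. Of 4 other ubiquitin C-terminal hydrolases none was called between roots with all arrays. Uchl3 differed by 0.15 at 1W and Uchl5 by 0.14, where Uchl1 differed by 2.03, and Bap1 was lower at 5W than at P0 in EN (-0.30).

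Promoter sequence was at hand for 5 members by symbol (Uchl1, Tubb3, Map1b, Prph and Ina), from RefSeq on GRCm38. The 60 bases before the start are shown for Prph and Tubb3, the pair with the highest correlation, at chr15:99055114-99055173 and chr8:123411493-123411552, both on the plus strand. Capitals mark TATAAA and GGGCGG on either strand.
Prph: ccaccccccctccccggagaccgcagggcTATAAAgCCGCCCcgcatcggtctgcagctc
Tubb3: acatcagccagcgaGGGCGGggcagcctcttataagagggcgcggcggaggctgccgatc
Within these 60 bases TATAAA was found in Prph alone of the 5 and in 3.92% of all 32851 promoters of the table, and GGGCGG in 4 of the 5, all but Uchl1, and in 18.6% of all. The matches describe these letters and no binding.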

How the data were processed

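Intensity of 24 one-colour arrays was read by the authors with Feature Extraction 10.7.1.1. The deposited log2 values were quantile normalized by the authors in GeneSpring and were used as given; each column matched its own scanner signal (r = 1 to 4 digits, at most 0.9906 with another array). A probe entered the tests when some group had it well above background on each of its 3 arrays (36409 of 56605 probes). limma 3.58.1 (R 4.3.3) fitted 8 group means (16 residual degrees of freedom), with Benjamini-Hochberg adjustment over all tested probes and 0.05 as the threshold. The methods name independent experiments per group but not which animals made up each, so p-values measure the spread between these samples, which may be partly technical. The number of arrays and the signal over background limit precision: 55.09% to 71.74% of spots were well above background and 0 were saturated.

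Same-numbered AN and EN arrays of a stage shared a slide, and their deviations from the group means correlated at 0.107 to 0.646 in all 12 pairs, so the numbers were taken to pair the samples. Members were named by the highest mean over 24 arrays among their probes. Of the other lists, the 2 genes with the largest mean AN minus EN difference and the 2 with the largest mean 5W minus P0 difference were named, with Tuba4a, Tubb4a, Map1a, Map2, Kif5a, Vim, Gfap, Nes and Uchl3. One gene that this rule names is not reported here. Members and lists were chosen with earlier results of these data known. The fit was tested on simulated data. Alternatives were other normalizations of the scanner signal, other filters, blocks for replicate, pair and slide, array weights, each array left out, the second-brightest probe, and the methods' threshold of an unadjusted p under 0.05 with a 2-fold change.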

Additional observations from a re-analysis of the deposited data

How the results depend on the processing

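No called difference of a member changed its direction under the alternatives of normalization, filter, model, left-out array or second-brightest probe; a fainter Mapt probe is the exception given below. The 3 normalizations of the scanner signal and the second probe left each count of called members within 1.5 times of the reported one. Without a filter on dim probes the count for AN 3W minus 1W went from 1 to 0. Fitting only the groups compared gave 0 for AN minus EN at 5W, 8 for EN 3W minus P0, 2 for AN 5W minus P0, 1 for EN 3W minus 1W, 0 for AN 3W minus 1W and 5 for the change of AN minus EN from P0 to 1W. The replicate block by number gave the same counts as reported, for example 6 for AN minus EN at 1W. The paired replicate block gave 3 for AN minus EN at 3W and 2 at 5W and changed no other count by over 1.5 times. Slide as a block gave 2 for AN minus EN at 5W, 2 for EN 3W minus P0, 0 for AN 3W minus P0 and 0 for AN 3W minus 1W. Array weights gave 3 for AN minus EN at 3W, 8 for EN 3W minus P0, 7 for AN 3W minus P0, 2 for EN 3W minus 1W, 8 for AN 3W minus 1W and 6 for the change of AN minus EN from P0 to 1W. The methods' threshold gave 5 for AN minus EN at 3W, 2 at 5W, and 6, 1 and 1 for its change from P0 to 1W, 3W and 5W. The causes were not tested.

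Leaving out 1 array at a time gave 1 to 8 members for AN minus EN at 1W, 1 to 3 at 3W and 1 to 2 at 5W. The ranges were 3 to 8 for EN 1W minus P0, 4 to 8 for EN 3W minus P0, 5 to 8 for EN 5W minus P0, 1 to 8 for AN 3W minus P0, 1 to 8 for AN 5W minus P0 and 0 to 8 for AN 3W minus 1W. They were 0 to 6, 0 to 0 and 0 to 1 for the change of AN minus EN from P0 to 1W, 3W and 5W. The highest values came without AN 3W replicate 3, except for AN minus EN at 3W (3 without AN 3W replicate 2, and 2 without AN 3W replicate 1), a tie at 1W with AN 3W replicate 2 left out and at 5W with AN 5W replicate 3 left out, and 1 for the change to 5W without AN P0 replicate 2. EN 1W minus P0 gave 3 without EN P0 replicate 3, EN 1W replicate 1 or EN 1W replicate 2. Of 41 called differences that another tested probe of the same gene could also show, 37 were called there and 40 had the same sign; the 4 not called were of Mapt, and 1 of these had the opposite sign.

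Tissue gathered per group, 3 arrays a group and 1 shared estimate of the spread limit the members' tests. AN 3W replicate 3 widens that estimate for every comparison, and without it AN 3W rests on 2 arrays.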

Other observations

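The light and medium chains also shifted against each other within the arrays. On the main probes the log2 ratio of Nefl to Nefm, set to 0 at its EN P0 mean, was -0.22 ± 0.05 (SD, n = 3) in AN P0 and 0.62 ± 0.11 in EN 5W and 0.52 ± 0.09 in AN 5W, whereas on the second probes the EN 5W mean was -1.25 ± 0.25. The direction therefore depended on the probe. The ratio of Prph to Nefl had a mean of -2.01 in EN 3W on the main probes and of -0.75 on the second probes, with EN P0 again at 0.

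Map1b was read by 2 further tested probes, and 1 of them followed the main probe weakly (r = 0.259 over 24 arrays). That probe differed by 0.28 ± 0.28 between roots at 1W, where the main probe differed by 1.35, and it was lower in EN 5W than in EN P0 (-0.98, limma adjusted p = 0.00636), where the main probe differed by -0.28.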
